A study of Arabidopsis thaliana with 18 samples.

Results

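The warm response of the pif4 mutant was taken as the comparison of its 3 libraries labelled 29 °C with its 3 libraries labelled 22 °C, which are 6 of the 18 libraries of the series. Every group was Arabidopsis thaliana seedlings of strain Columbia at day 7, and seedlings gave the RNA. The pif4 groups carried the genotype PIF4-/-, whose allele the labels leave out. The same 2 temperatures were sampled in the wild type and in the bbx18 bbx23 mutant, again with 3 libraries a group. The labels give no hour of harvest, no time spent at 29 °C and no statement that replicates were grown apart, so each p-value covers no more than the spread among these libraries. Of 33602 genes in the table, 19116 reached 1 FPKM in at least 3 of the 18 libraries and were compared.

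PIF4 (PHYTOCHROME INTERACTING FACTOR 4) is a basic helix-loop-helix transcription factor that binds G-box DNA, is destabilised by active phytochrome B, and accumulates in warm seedlings. It is known as the main driver of hypocotyl elongation in the warm, through auxin synthesis and cell wall loosening genes. Other branches of the temperature response are known to run beside it, among them the heat shock factors that switch on chaperone genes, and the evening complex of the circadian clock, which represses PIF4 itself. The pif4 response therefore bears on which gene groups still changed with temperature in plants labelled as lacking PIF4.

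PIF4 transcript was listed in every pif4 library. At 22 °C it stood at 7.90, 6.96 and 6.30 FPKM in pif4 and at 10.4, 10.9 and 8.83 FPKM in the wild type. At 29 °C it stood at 9.09, 11 and 7.84 FPKM in pif4 and at 19.4, 16.1 and 16.8 FPKM in the wild type. The pif4 libraries lay below the wild-type libraries at each temperature, without overlap. The change within pif4 was 0.35 ± 0.13 (SE) on the log2 scale and did not pass the threshold (limma adjusted p = 0.0972), while the wild-type change was 0.74 ± 0.13 (limma adjusted p = 0.00132). The difference between these changes was -0.39 ± 0.19 (limma adjusted p = 1). A value summed over the whole gene does not show which part of the transcript was made, so this is no full check of the label.

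In pif4, 893 genes rose at 29 °C, which is 4.67% of those tested, and 1622 fell, which is 8.49%. "Rose" and "fell" are used where the limma adjusted p lay under 0.05, and changes are differences of mean log2(FPKM + 1), a scale on which genes of low FPKM seem to change less. The median change was 0.70 among the risen and -0.70 among the fallen genes, against -0.03 over all genes tested. A change of at least 2-fold on this scale was reached by 229 risen and 328 fallen genes, and one of at least 8-fold by 12 risen and 6 fallen genes. The 3 libraries at 29 °C did not overlap the 3 at 22 °C for 2479 of the 2515 called genes, and for 27.9% of all genes tested. With the 6 pif4 libraries fitted alone, 368 genes rose and 728 fell. The 34 gene lists have 530 entries, of which 490 passed the filter on low values and are called measured members.

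The pif4 libraries at 29 °C were not alike. On the second principal component of all 18 libraries, which held 20% of the variance, replicate 1 stood at 41.26, replicate 2 at -31.97 and replicate 3 at -20.1, while the pif4 libraries at 22 °C lay between -18.41 and -3.635. Replicates 1 and 2 of the wild type and of bbx18 bbx23 at 29 °C lay on the same sides as those of pif4. Between pif4 replicates 1 and 2 at 29 °C, 1196 genes differed by more than 1 on the log2 scale. Of these 106 were called, against 2515 of all 19116 genes tested (13.2%). A wide spread within a group itself makes a call less likely. Fragment totals are not part of the table; steps between low FPKM values gave a rough estimate, based on RefSeq transcript lengths, that was highest in pif4 replicate 1 at 29 °C at 26.2 M fragments and lay at 18.9 to 21.9 M in 4 of the other pif4 libraries. Summed FPKM was 1050890 to 1146928 at 22 °C and 744698 to 963730 at 29 °C, and the 10 most abundant genes held 12.4% to 14.4% and 7.63% to 8.87% of it.

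Heat shock chaperone genes had the largest rises. Small heat shock proteins, which hold unfolding proteins in a soluble state, rose in 13 of 15 measured members, with a list median of 2.99 and a range of 0.08 to 5.11. No small heat shock gene fell. The cytosolic HSP17.4 was at 0.221, 0.069 and 0 FPKM at 22 °C and at 31.4, 85.0 and 18.1 FPKM at 29 °C, a log2 change of 5.11 ± 0.52 (SE, limma adjusted p = 1.19e-05). HSP17.6A, of the same family, was at 0.086, 0.264 and 0 FPKM at 22 °C and at 32.8, 119 and 13.1 FPKM at 29 °C. All 3 warm libraries exceeded all 3 cool libraries for both genes, and replicate 2 was the highest. HSP17.6II was listed at 0 in the 3 libraries at 22 °C and stood at 7.38, 71.0 and 5.40 FPKM at 29 °C. HSP23.6-MITO, a mitochondrial member, went from 0.061, 0.115 and 0.182 FPKM to 17.3, 43.0 and 15.6 FPKM, with a log2 change of 4.41 ± 0.44 (limma adjusted p = 9.19e-06). The chloroplast member HSP21 was lower, at 3.168, 4.49 and 2.72 FPKM at 29 °C, with 2 of its 3 libraries at 22 °C listed at 0. HSP17.4 shares bases with an opposite-strand gene, and the labels do not say if counting kept strands apart.

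**Figure D1:**
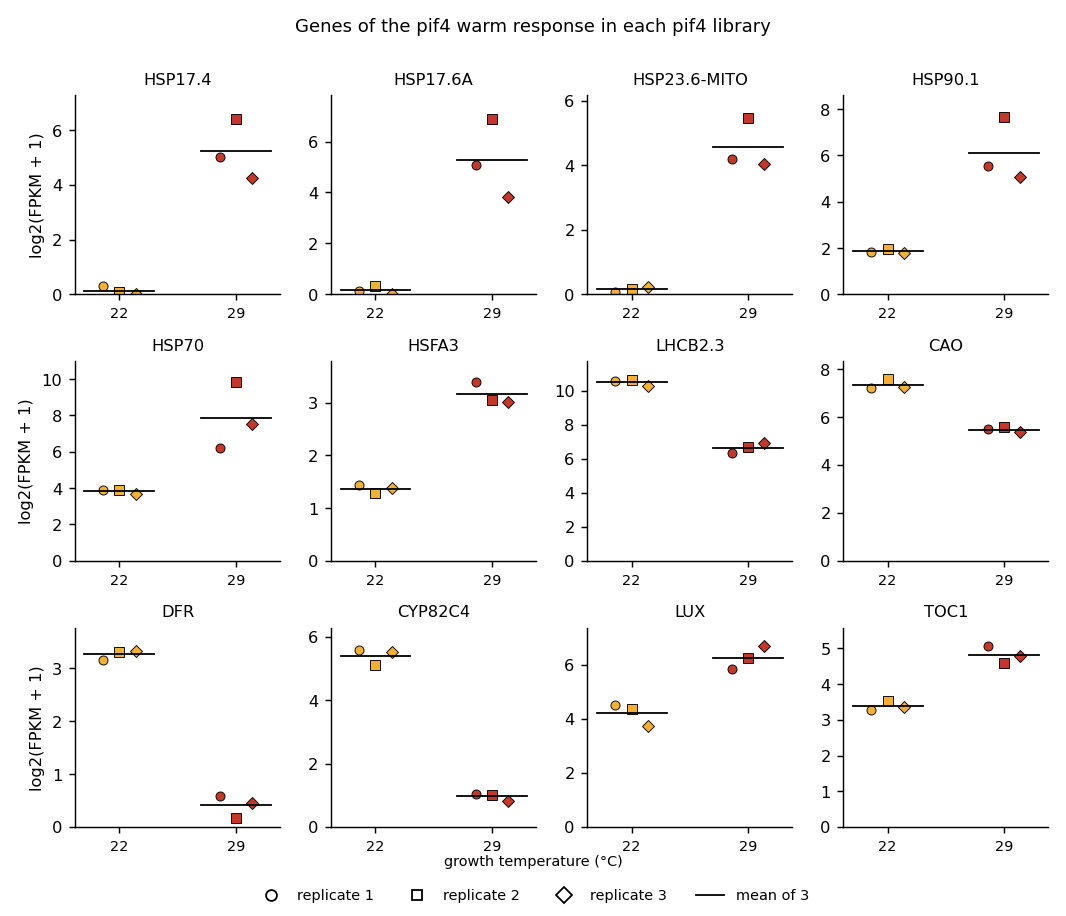
Log2(FPKM + 1) of 12 genes in each pif4 library at 22 °C (yellow) and 29 °C (red), with circles, squares and diamonds for replicates 1, 2 and 3 and a line at the mean of 3. In all 12 panels the warm and cool libraries do not overlap, and replicate 2 at 29 °C is the highest in the panels for HSP17.4, HSP17.6A, HSP23.6-MITO, HSP90.1 and HSP70.

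The larger chaperones and their co-chaperones rose in 9 of 18 members, with a median of 1.16. HSP90.1, the heat-inducible cytosolic HSP90, stood at 2.59, 2.90 and 2.43 FPKM at 22 °C and at 46.3, 204 and 32.3 FPKM at 29 °C (log2 change 4.24 ± 0.69, limma adjusted p = 0.000666). The cytosolic HSP70 gene AT3G12580 stood at 14.1, 14 and 11.8 FPKM and then at 74.2, 929 and 181 FPKM (4.03 ± 0.90, limma adjusted p = 0.00695). Replicate 2 stood far above the other warm libraries for both genes, and no warm library overlapped a cool one. HSA32, needed in Arabidopsis for keeping acquired heat tolerance, was more even, at 4.49, 5.85 and 5.46 FPKM and then 18.4, 24.8 and 19.7 FPKM (1.81 ± 0.19, limma adjusted p = 1.34e-05). HSP101, the disaggregase of acquired thermotolerance, stood at 8.80, 94.0 and 11 FPKM at 29 °C against 1.71 to 2.88 FPKM at 22 °C. Its call (2.78 ± 0.86, limma adjusted p = 0.0427) was lost when any of 4 pif4 libraries was left out, replicate 2 at 29 °C and each library at 22 °C. Without replicate 2 at 29 °C, 11 small heat shock genes and 5 of the larger chaperone genes rose. Without replicate 2 at 29 °C in all genotypes these counts were 13 and 9.

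Among heat shock factors and heat regulators, 4 of 18 measured members rose and none fell. HSFA3, a factor of the heat and drought response, stood at 1.69, 1.45 and 1.60 FPKM at 22 °C and at 9.57, 7.30 and 7.10 FPKM at 29 °C (1.79 ± 0.12, limma adjusted p = 1.71e-07). HSFA8 went from 0.552, 0.827 and 1.06 FPKM to 3.51, 3.93 and 3.55 FPKM (1.37 ± 0.15, limma adjusted p = 2.17e-05). Both factors changed evenly across the 3 warm libraries, unlike HSP90.1, HSP70 and HSP101. MBF1C, a coactivator of thermotolerance, stood at 49.7, 364 and 70.2 FPKM at 29 °C against 9.11 to 12.6 FPKM at 22 °C (3.18 ± 0.75, limma adjusted p = 0.0099), and its call was lost without replicate 2. DREB2A, which activates HSFA3 in Arabidopsis, changed by 1.60 ± 0.39 (limma adjusted p = 0.0124), and its call was lost without that replicate as well. HSFA2, the factor that prolongs the heat response and a gene chosen after its values were seen, stood at 0.368, 0.597 and 0.295 FPKM at 22 °C and at 1.73, 66.4 and 4.07 FPKM at 29 °C and did not pass the test (limma adjusted p = 0.134). Chaperones of the endoplasmic reticulum went another way, since 5 of 19 fell and 1 rose. The calreticulin gene CRT1B fell from 85.3, 86.3 and 85.9 FPKM to 51.0, 59.3 and 64.4 FPKM (-0.56 ± 0.10, limma adjusted p = 0.00175), CRT1A changed by -0.48 ± 0.11, and the BiP gene BIP2, which has the near-identical copy BIP1, by -0.44 ± 0.10. The riser was ATERDJ3A, a DnaJ co-chaperone, at 2.38, 8.02 and 2.60 FPKM at 29 °C against 0.827 to 0.944 FPKM at 22 °C, a call lost when any of 4 libraries was left out. The 5 fallen genes were 3 without replicate 3 at 22 °C or without replicate 2 at 29 °C, and with the 6 pif4 libraries fitted alone 0 genes of this list were called.

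Promoters of small heat shock genes are known to carry heat shock elements, and the 250 bases before the annotated start of each gene were read from RefSeq TAIR10.1 for a description. The letters GAANNTTC, a core of the heat shock element that reads the same on both strands, occurred in 9.22% of 18580 promoters of tested genes. They occurred in 12.3% of 839 promoters of risen genes and in 7.62% of 1602 promoters of fallen genes. Of the 15 small heat shock genes 4 held them, and of the 18 larger chaperone genes none did in this window. Both promoters shown are of risen small heat shock genes, HSP17.4 with 2 matches at chr3:16984868-16985117, minus strand, and HSP21 with 1 match at chr4:13819972-13820221, minus strand, with matches in capitals. The first match of HSP17.4 lies 99 to 92 bases before the start and the second 18 to 11 bases before it, and that of HSP21 lies 100 to 93 bases before the start. The 6 capitals near the distal end of the HSP17.4 promoter are a G-box, CACGTG.
HSP17.4 promoter: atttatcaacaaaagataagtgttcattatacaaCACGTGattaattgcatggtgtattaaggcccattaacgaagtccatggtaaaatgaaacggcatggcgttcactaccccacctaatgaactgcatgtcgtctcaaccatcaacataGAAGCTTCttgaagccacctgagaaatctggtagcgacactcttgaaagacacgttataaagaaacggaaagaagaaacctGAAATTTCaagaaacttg
HSP21 promoter: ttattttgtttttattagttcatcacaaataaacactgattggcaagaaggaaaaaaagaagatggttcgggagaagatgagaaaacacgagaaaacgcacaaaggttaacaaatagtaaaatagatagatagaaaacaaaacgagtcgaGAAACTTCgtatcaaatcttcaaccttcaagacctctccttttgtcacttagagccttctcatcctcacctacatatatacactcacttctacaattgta

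Genes of photosynthesis fell. Light-harvesting antenna proteins, which bind chlorophyll around the photosystems, fell in 19 of 20 members, with a median of -1.32 and a range of -3.83 to -0.71. LHCB2.3 stood at 1490, 1597 and 1224 FPKM at 22 °C and at 81.0, 104 and 118 FPKM at 29 °C (-3.83 ± 0.16, limma adjusted p = 1.49e-09), although it overlaps a gene on the opposite strand. LHCB1.1 stood at 14750, 13860 and 14000 FPKM and then at 718, 1534 and 1668 FPKM (-3.53 ± 0.26, limma adjusted p = 4.63e-07). Every warm value of both genes lay far below every cool value. LHCB1.1 is 94.1% to 96.1% identical to 2 other LHCB1 genes, between which counting could have split reads. LHCA4, an antenna protein of photosystem I chosen after its values were seen, fell from 4030, 4251 and 3448 FPKM to 1357, 1615 and 1824 FPKM (-1.29 ± 0.15, limma adjusted p = 3.94e-05). The summed FPKM of the list was 117000 to 137000 at 22 °C and 35300 to 54200 at 29 °C. Replicate 1 at 29 °C, which stood apart on the second component, was the lowest for 18 of the 19 fallen antenna genes, and its part in the result was not tested. Without it in all genotypes, 18 antenna genes fell. In bulk seedling RNA, fewer green cells and less RNA per cell cannot be told apart.

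Carbon fixation followed, with 10 of 12 genes fallen and a median of -1.05. SBPASE, a regulated enzyme of the Calvin cycle, stood at 677, 795 and 578 FPKM at 22 °C and at 255, 341 and 286 FPKM at 29 °C (-1.21 ± 0.14, limma adjusted p = 3.92e-05). Rubisco activase, RCA, stood at 7510, 8068 and 5003 FPKM and then at 2087, 3556 and 3003 FPKM (-1.26 ± 0.24, limma adjusted p = 0.00208). Replicate 1 at 29 °C was the lowest for all 10 fallen genes of the list. With the 6 pif4 libraries fitted alone, 6 of these genes fell.

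Chlorophyll synthesis genes fell in 21 of 22 members, with a median of -0.94, and 14 fell with the pif4 libraries fitted alone. CAO, which makes chlorophyll b from chlorophyll a, stood at 146, 193 and 150 FPKM at 22 °C and at 44.0, 46.4 and 40.0 FPKM at 29 °C (-1.87 ± 0.12, limma adjusted p = 8.01e-08). CHLI1, a subunit of the magnesium chelatase that commits porphyrin to chlorophyll, stood at 443, 457 and 405 FPKM and then at 188, 192 and 195 FPKM (-1.18 ± 0.10, limma adjusted p = 2.52e-06). The 3 warm libraries agreed closely for both genes, with no low replicate 1. The exception in the list was PORB, a light-dependent protochlorophyllide reductase chosen after its values were seen, which rose from 381, 301 and 307 FPKM to 570, 485 and 595 FPKM (0.74 ± 0.20, limma adjusted p = 0.0192). CAO, CHLI1 and PORB overlap genes on the opposite strand.

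**Figure D2:**
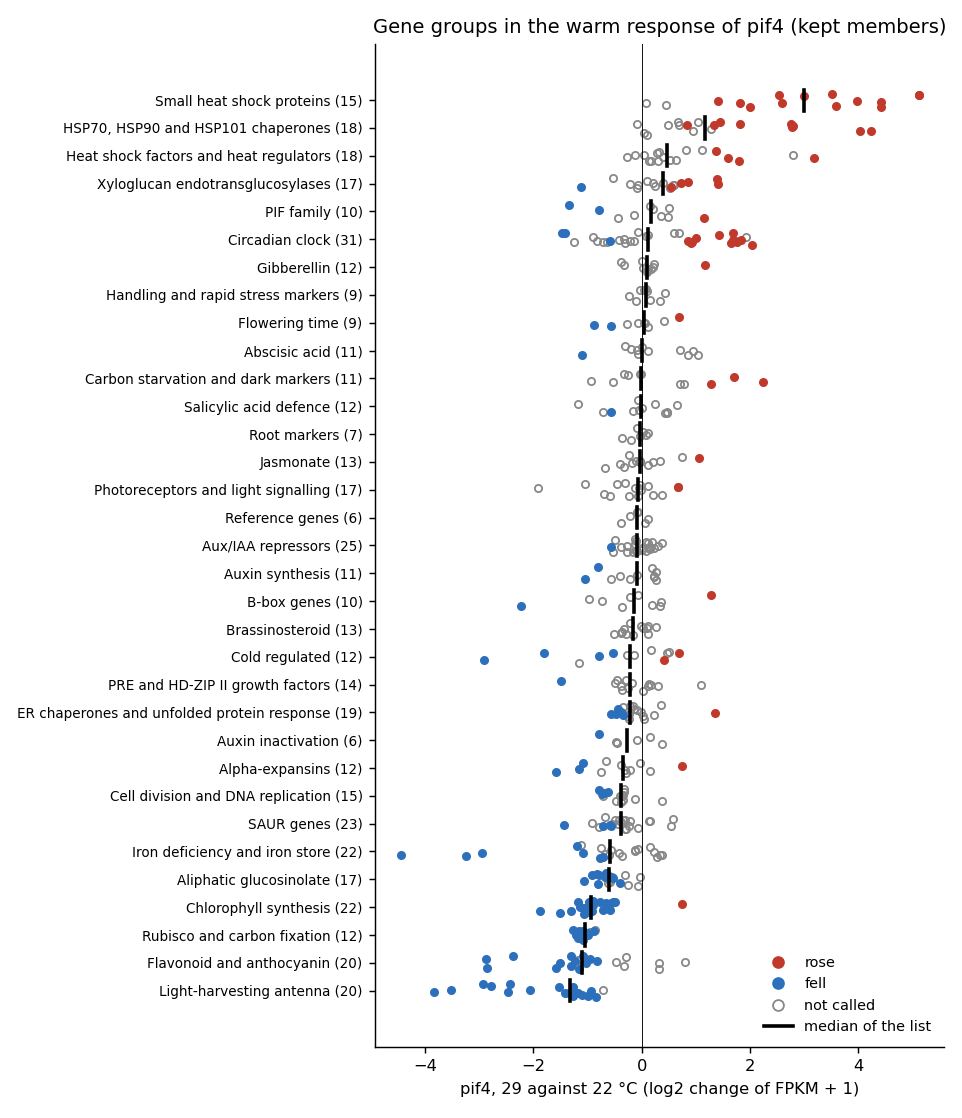
Log2 change of FPKM + 1 between 29 °C and 22 °C in pif4 for each measured member of 33 gene groups (all lists but the seed markers), with the number of measured members in brackets. Red points rose, blue points fell, open points were not called, and black bars are group medians, which run from -1.32 for the antenna to 2.99 for small heat shock proteins.

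Flavonoid and anthocyanin genes fell in 13 of 20 measured members and rose in none, with a median of -1.11. With the pif4 libraries fitted alone, 11 fell. The largest falls were of late steps. DFR, dihydroflavonol reductase, stood at 7.97, 8.84 and 9.06 FPKM at 22 °C and at 0.505, 0.130 and 0.378 FPKM at 29 °C (-2.85 ± 0.15, limma adjusted p = 2.47e-08). LDOX, the next enzyme of the path, stood at 7.76, 7.84 and 8.17 FPKM and then at 0.783, 0.790 and 0.561 FPKM (-2.38 ± 0.14, limma adjusted p = 6.7e-08). TT19, a glutathione transferase needed for anthocyanin to reach the vacuole, changed by -2.87 ± 0.18. The mean FPKM at 29 °C was 25.5-fold lower than at 22 °C for DFR and 11.1-fold lower for LDOX, with no overlap of libraries. CHS, chalcone synthase at the head of the path and chosen after its values were seen, fell from 221, 210 and 197 FPKM to 55.7, 120 and 88.7 FPKM (-1.31 ± 0.29, limma adjusted p = 0.00682).

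Aliphatic glucosinolate genes, which make sulphur-rich defence compounds from methionine, fell in 10 of 17 members and rose in none, with a median of -0.61, and 6 fell with the pif4 libraries fitted alone. The regulator MYB29 stood at 5.88, 6.42 and 6.22 FPKM at 22 °C and at 2.34, 2.64 and 2.29 FPKM at 29 °C (-1.07 ± 0.18, limma adjusted p = 0.000869). Its paralogue MYB28 stood at 36.5, 39.3 and 36.6 FPKM and then at 21.0, 21.1 and 21.4 FPKM (-0.80 ± 0.12, limma adjusted p = 0.000484). Neither regulator had a warm library that reached a cool one. The wild type had 14 fallen genes of the list, with a median of -0.83, and MYB29 changed by -1.75 ± 0.18. The pif4 change lay above the wild-type change for all 17 members, against 8379 of all 19116 genes tested. The median difference was 0.27, against -0.03 over all genes. But 0 of the 17 differences passed the test, and MYB29 differed by 0.68 ± 0.25 (limma adjusted p = 1).

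Iron deficiency and iron store genes, many of which serve uptake in roots, fell in 7 of 22 measured members and rose in none, with a median of -0.59. With the pif4 libraries fitted alone, 5 fell. CYP82C4, an enzyme of the iron-mobilising coumarin sideretin, stood at 46.8, 33.6 and 44.4 FPKM at 22 °C and at 1.07, 1.02 and 0.765 FPKM at 29 °C (-4.44 ± 0.27, limma adjusted p = 6.7e-08). That was the largest fall of any gene named here, although 2 close copies are 91.6% and 91.7% identical to it. IRT1, the root iron transporter, stood at 81.0, 67.1 and 81.1 FPKM and then at 10.7, 9.05 and 3.52 FPKM (-3.25 ± 0.47, limma adjusted p = 0.000281). FRO2, the ferric reductase, stood at 26.9, 22.9 and 27.5 FPKM and then at 3.06, 2.90 and 1.64 FPKM (-2.94 ± 0.31, limma adjusted p = 1.34e-05). FRU, also called FIT, the regulator of both, changed by -0.77 ± 0.16 (limma adjusted p = 0.00448). None of the 7 root markers was called, their median was -0.03, and their summed FPKM was 1770 to 2420 at 22 °C and 1630 to 2230 at 29 °C.

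Circadian clock genes changed in both directions, with 11 of 31 measured members risen and 3 fallen. The evening complex subunit LUX, a DNA-binding repressor, stood at 21.8, 19.5 and 12.4 FPKM at 22 °C and at 56.0, 74.0 and 101 FPKM at 29 °C (2.04 ± 0.24, limma adjusted p = 3.94e-05). BOA, its close relative, stood at 5.01, 3.94 and 5.24 FPKM and then at 19.9, 17.9 and 20.7 FPKM (1.84 ± 0.11, limma adjusted p = 8.01e-08). TOC1, an evening repressor of the morning genes, stood at 8.69, 10.5 and 9.35 FPKM and then at 32.8, 23.1 and 26.8 FPKM (1.43 ± 0.15, limma adjusted p = 1.34e-05). The other evening complex subunits, ELF4 and ELF3, both chosen after their values were seen, changed by 1.64 ± 0.30 and 1.00 ± 0.23 (limma adjusted p = 0.00183 and 0.00805). PRR5, of the TOC1 family, rose from 0.319, 0.552 and 0.375 FPKM to 3.43, 4.15 and 3.13 FPKM (1.69 ± 0.18, limma adjusted p = 1.34e-05). The morning factor LHY fell from 302, 343 and 247 FPKM to 86.1, 135 and 101 FPKM (-1.47 ± 0.22, limma adjusted p = 0.000324). Since the hour of harvest is not given, a clock phase that differed between the temperatures and a change at a fixed phase cannot be told apart. Without replicate 1 or replicate 2 at 29 °C in all genotypes, 11 clock genes rose and 3 fell. With each pif4 library left out in turn, 9 to 11 rose and 2 to 3 fell. With the pif4 libraries fitted alone, 9 rose and 2 fell. LUX and BOA overlap genes on the opposite strand.

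The evening element, AAAATATCT or its complement AGATATTTT, was counted in the same promoters because morning clock factors bind it. It occurred in 2.47% of promoters of tested genes, in 5.01% of those of risen genes, in 2.06% of those of fallen genes and in 7 of 32 clock genes. The promoters of 3 risen evening genes are shown with evening elements and G-boxes in capitals, all on the plus strand. LUX at chr3:17182792-17183041 has a G-box 193 to 188 bases and an evening element 53 to 45 bases before the start. BOA at chr5:24003638-24003887 has a G-box 87 to 82 bases and an evening element 43 to 35 bases before it. TOC1 at chr5:24674713-24674962 has an evening element 151 to 143 bases before it and no G-box in this window.
LUX promoter: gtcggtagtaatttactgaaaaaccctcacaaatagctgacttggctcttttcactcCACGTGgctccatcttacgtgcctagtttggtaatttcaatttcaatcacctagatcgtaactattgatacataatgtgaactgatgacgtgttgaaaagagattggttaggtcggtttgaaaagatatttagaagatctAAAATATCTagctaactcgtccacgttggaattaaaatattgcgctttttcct
BOA promoter: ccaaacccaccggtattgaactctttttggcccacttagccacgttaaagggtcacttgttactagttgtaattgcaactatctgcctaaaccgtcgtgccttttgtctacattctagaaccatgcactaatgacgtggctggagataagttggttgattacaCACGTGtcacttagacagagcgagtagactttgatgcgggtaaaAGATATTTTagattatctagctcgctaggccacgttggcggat
TOC1 promoter: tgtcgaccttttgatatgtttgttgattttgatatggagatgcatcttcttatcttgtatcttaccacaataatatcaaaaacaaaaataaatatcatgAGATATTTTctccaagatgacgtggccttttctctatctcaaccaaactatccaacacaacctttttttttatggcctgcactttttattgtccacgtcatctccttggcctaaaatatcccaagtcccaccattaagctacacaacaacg

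Auxin and growth genes, where PIF4 is best known to act, are read against the 4.67% risen and 8.49% fallen of all genes tested, so that 0 or 1 risen gene in a list of 11 to 25 is near the background. None of 11 measured auxin synthesis genes rose and 2 fell, with a median of -0.08. The fallen genes were TAR2 and CYP79B3 (-1.04), and the call of CYP79B3 was lost when any of 5 pif4 libraries was left out. The wild type was similar for this list, with 1 risen and 2 fallen genes and a median of -0.22. Of the differences between the 2 genotypes in this list, 0 had an unadjusted limma p under 0.05. YUC8, a flavin monooxygenase of auxin synthesis and a known PIF4 target, was at 3.03, 3.49 and 2.80 FPKM at 22 °C and at 3.51, 3.43 and 4.58 FPKM at 29 °C (0.23 ± 0.22, limma adjusted p = 0.56). The warm and cool libraries of YUC8 overlapped. TAR2, a tryptophan aminotransferase of the same path, fell from 10.4, 9.61 and 9.57 FPKM to 5.91, 4.51 and 5.20 FPKM (-0.81 ± 0.12, limma adjusted p = 0.00032). Of 25 measured Aux/IAA repressors, 0 rose and IAA8 fell (-0.57 ± 0.11), a call lost with the pif4 libraries fitted alone, while 4 rose in the wild type. Of the differences between the 2 genotypes for these repressors, 0 passed the test and 3 had an unadjusted limma p under 0.05. Without replicate 3 at 29 °C, 3 of these repressors fell in pif4. IAA19, an early auxin-induced repressor chosen after its values were seen, was at 5.6, 5.92 and 7.93 FPKM at 22 °C and at 6.77, 4.51 and 6.81 FPKM at 29 °C in pif4. In the wild type it went from 9.61, 7.36 and 9.85 FPKM to 21.2, 21.0 and 19.7 FPKM. The difference between the 2 changes was -1.23 ± 0.22, which did not pass the test over all genes (unadjusted p = 4.05e-05, limma adjusted p = 0.155).

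SAUR genes, whose products promote cell expansion by keeping the plasma membrane proton pump active, rose in 0 and fell in 4 of 23 measured members, with a median of -0.39. SAUR15 stood at 4.65, 4.75 and 4.94 FPKM at 22 °C and at 0.775, 1.16 and 1.5 FPKM at 29 °C (-1.44 ± 0.32, limma adjusted p = 0.00656). SAUR62, with a copy 95.1% identical, changed by -0.71 ± 0.17. The 4 fallen genes were 1 without replicate 1 at 22 °C, 2 without replicate 2 at either temperature and 3 with each of the other pif4 libraries left out, and the calls of SAUR63 and SAUR16 were each lost in 5 of these 6 fits. In the wild type 1 SAUR gene fell. The pif4 change lay below the wild-type change for 20 of 23 members, against 10737 of all 19116 genes tested. The median difference was -0.29, against -0.03 over all genes. No single SAUR difference passed the test. The basic helix-loop-helix growth factor PRE6, also named KIDARI, fell from 18.9, 21.8 and 18.5 FPKM to 8.87, 5.15 and 5.53 FPKM (-1.49 ± 0.28, limma adjusted p = 0.00192), and the other 13 genes of the PRE and HD-ZIP II list were not called.

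Cell wall genes were mixed. Among xyloglucan endotransglucosylases, which cut and rejoin wall xyloglucan, 5 of 17 rose and 1 fell, with a median of 0.39. Without replicate 2 at 22 °C, or with the pif4 libraries fitted alone, 3 rose, and without replicate 3 at 29 °C 3 fell. XTH23 stood at 21.6, 17.9 and 18.7 FPKM at 22 °C and at 68.8, 53.3 and 41.1 FPKM at 29 °C (1.41 ± 0.30, limma adjusted p = 0.00449). XTH24 changed by 1.39 ± 0.31 and XTH25 by 0.85 ± 0.18, while XTH20 fell from 6.46, 6.15 and 10 FPKM to 2.97, 1.88 and 4.04 FPKM (-1.12 ± 0.20, limma adjusted p = 0.00154). The wild type had 9 risen genes here, and 0 of the differences between the 2 genotypes in this list passed the test. XTH15 and XTH17, both chosen after their values were seen, had log2 differences of 0.39 ± 0.25 and 0.59 ± 0.21 in pif4, neither called, and rose by 2.01 ± 0.25 and 1.85 ± 0.21 in the wild type. Their differences, -1.62 ± 0.36 and -1.26 ± 0.30, did not pass the test (limma adjusted p = 0.62 and 1). Alpha-expansins, which loosen walls at acid pH, fell in 3 of 12 members and rose in 1. EXPA8 stood at 105, 116 and 104 FPKM and then at 46.0, 20.5 and 47.5 FPKM (-1.58 ± 0.33, limma adjusted p = 0.0044), and EXPA1 at 596, 623 and 506 FPKM and then at 168, 291 and 349 FPKM (-1.15 ± 0.23, limma adjusted p = 0.00341). The 3 warm libraries lay under the 3 cool ones for both expansins. EXPA16 rose by 0.74 ± 0.19, a call lost without replicate 2 at 22 °C and without replicate 1 at 29 °C.

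**Figure D3:**
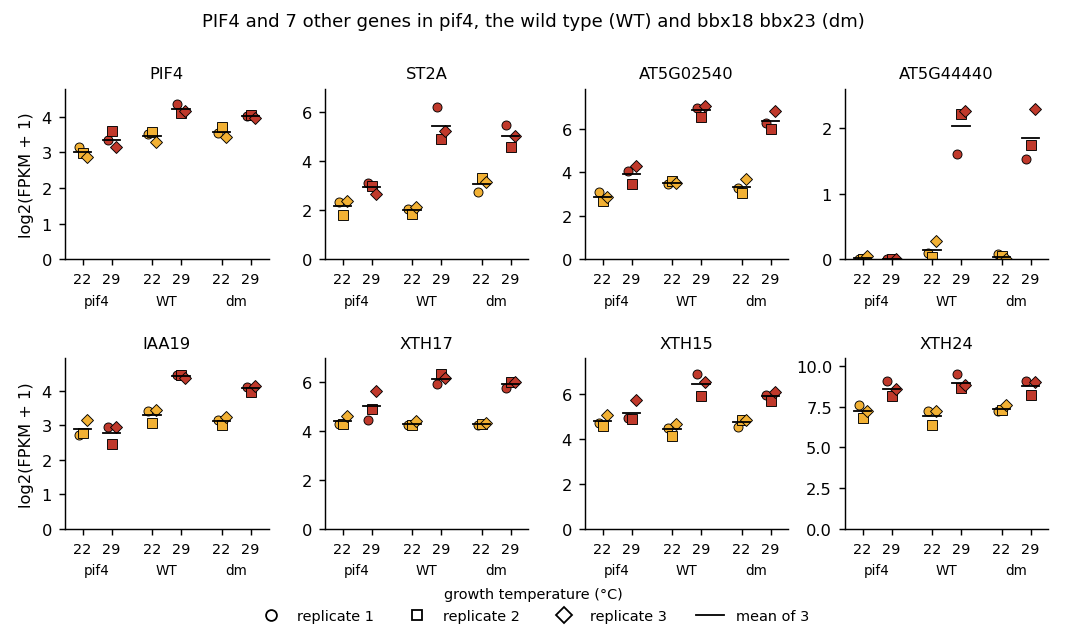
Log2(FPKM + 1) of PIF4 and 7 other genes in each library of pif4, the wild type (WT) and bbx18 bbx23 (dm) at 22 °C (yellow) and 29 °C (red), with symbols for replicates and a line at the mean of 3. For ST2A, AT5G02540, AT5G44440 and IAA19 every pif4 library at 29 °C lies below every library of the other genotypes at 29 °C.

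Large changes were also found among genes of no list. AT2G15880, annotated as a leucine-rich repeat family protein, went from 0.711, 0.540 and 0.273 FPKM to 20.0, 8.65 and 8.50 FPKM (3.05 ± 0.31, limma adjusted p = 1e-05). AT2G20560, annotated as a DnaJ protein, stood at 13.4, 90 and 14.9 FPKM at 29 °C against 1.88 to 3.09 FPKM at 22 °C (2.94 ± 0.72, limma adjusted p = 0.0126), and its call was lost without replicate 2 at 29 °C. On the falling side, PPT2, a phosphoenolpyruvate transporter of the plastid envelope, went from 20.7, 30 and 17.5 FPKM to 0.918, 1.93 and 0.898 FPKM (-3.40 ± 0.25, limma adjusted p = 4.95e-07). Its libraries did not overlap. GBSS1, the starch synthase that makes amylose, went from 142, 162 and 89.5 FPKM to 5.57, 48.9 and 14.4 FPKM (-2.90 ± 0.73, limma adjusted p = 0.014), a call lost when any of 3 libraries was left out. AT1G66100, annotated as a thionin, went from 266, 300 and 146 FPKM to 21.7, 31.9 and 27.4 FPKM (-3.04 ± 0.28, limma adjusted p = 4.72e-06). AT3G28220, annotated as TRAF-like, changed by -2.81 ± 0.23, and the lipid-transfer-like AT5G48490 by -2.58 ± 0.47.

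Markers of sugar starvation and darkness had 3 risen and 0 fallen genes of 11, with a median of -0.01. SEN1, induced in darkness and ageing, stood at 29.5, 24.8 and 33.5 FPKM at 22 °C and at 210, 122 and 107 FPKM at 29 °C (2.23 ± 0.26, limma adjusted p = 3.2e-05). DIN2, a glycosidase induced in the dark, stood at 0.883, 0.655 and 0.864 FPKM and then at 14.2, 4.91 and 1.25 FPKM (1.71 ± 0.43, limma adjusted p = 0.0148), a call lost without replicate 2 at 22 °C. BCAT2, a branched-chain amino acid transaminase, changed by 1.28 ± 0.19. Without replicate 1 at 29 °C in all genotypes, 3 genes of this list rose and 4 fell. Cold-regulated genes had 2 risen and 4 fallen of 12, and 0 and 2 with the pif4 libraries fitted alone. KIN1, induced by cold and abscisic acid and 92.1% identical to KIN2, fell from 53.5, 35.0 and 64.0 FPKM to 4.19, 7.33 and 5.93 FPKM (-2.91 ± 0.30, limma adjusted p = 1.34e-05), and COR15A, a chloroplast cold protein, changed by -1.80 ± 0.25 (limma adjusted p = 0.000189). COR47 rose by 0.41 ± 0.10, a call lost without replicate 1 or replicate 2 at 22 °C, and 0 or 1 gene of the list rose with any pif4 library left out.

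Most genes that changed in pif4 changed the same way in the wild type. The wild-type libraries are separate samples, but same-numbered pif4 and wild-type libraries deviated together at 22 °C (correlations of 0.502, 0.491 and 0.604 across genes) and for replicates 1 and 2 at 29 °C (0.467 and 0.694, against -0.324 for replicate 3), so the 2 responses cannot be taken as independent. Of the 893 risen genes, 888 had a positive change in the wild type, where their median was 0.66. Of the 1622 fallen genes 1617 had a negative one, with a median of -0.68. The wild-type median over all genes tested was -0.01. How many of all tested genes shared a sign in both genotypes was not counted. Called in both were 628 risen genes, which are 70.3% of those risen in pif4 and 58.3% of those risen in the wild type, and 1237 fallen genes, 76.3% and 75.7%. The wild type had 1077 risen genes (5.63% of those tested) and 1634 fallen genes (8.55%), 14.2% in all. For bbx18 bbx23 these were 1055 (5.52%) and 1541 (8.06%), 13.6% in all. A further 167 risen and 260 fallen genes were called in pif4 and in neither other genotype. None of these genes had a difference from the wild type that passed the test. For small heat shock genes the medians were 2.99 in pif4, 2.96 in the wild type and 2.97 in bbx18 bbx23, and 13 rose in each. For the antenna the medians were -1.32 in pif4 and in the wild type, with 19 genes fallen in each. In bbx18 bbx23 the antenna median was -1.53, with 20 genes fallen.

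The warm response of 3 genes differed between pif4 and the wild type, 0.0157% of those tested, and each was lower in pif4. When replicate number was a block inside each temperature, in a fit of all 18 libraries, 8 genes were called, these 3 among them. With the block across temperatures, fitted to the pif4 and wild-type libraries alone, 0 were called. The same libraries without a block gave 2. A block across temperatures assumes that same-numbered libraries deviate together at both temperatures. They did not, with correlations of -0.376, 0.003 and 0.182 in pif4 and -0.03, -0.333 and -0.197 in the wild type. Without adjustment, 248 genes had p under 0.05. ST2A encodes a sulfotransferase that acts on hydroxyjasmonate, a jasmonate breakdown product. It stood at 4.09, 2.56 and 4.24 FPKM at 22 °C and at 7.79, 7.00 and 5.43 FPKM at 29 °C in pif4 (0.75 ± 0.29, limma adjusted p = 0.105). In the wild type it went from 3.16, 2.61 and 3.35 FPKM to 73.8, 29.0 and 37.0 FPKM (3.45 ± 0.29). The difference was -2.70 ± 0.41 (limma adjusted p = 0.0422), and the warm libraries of the 2 genotypes did not overlap.

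AT5G02540, annotated as a Rossmann-fold protein, rose in pif4 from 7.49, 5.5 and 6.23 FPKM to 15.5, 9.87 and 18.6 FPKM (1.05 ± 0.24, limma adjusted p = 0.00742). The wild type went from 9.83, 11.1 and 10.4 FPKM to 121, 91.5 and 129 FPKM (3.32 ± 0.24), and the difference was -2.27 ± 0.33 (limma adjusted p = 0.0409). AT5G44440, annotated in the Berberine bridge enzyme family, was listed at 0 in 5 of the 6 pif4 libraries and at 0.034 FPKM in the other. Wild-type levels were 0.075, 0.030 and 0.218 FPKM at 22 °C and 2.05, 3.64 and 3.83 FPKM at 29 °C (1.89 ± 0.19), with a difference of -1.90 ± 0.26 (limma adjusted p = 0.0398). The 3 genes rose in bbx18 bbx23 as well, by 1.97, 3 and 1.81. Against bbx18 bbx23, limma called 0 genes with a differing pif4 response, 175 had an unadjusted p under 0.05, and the smallest adjusted p was 0.0656, for AT5G44440. Leaving out 1 library ended the call of ST2A in 10 of 12 fits and those of the other 2 genes in 9 of 12, with the differences staying between -2.98 and -1.78.

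**Figure D4:**
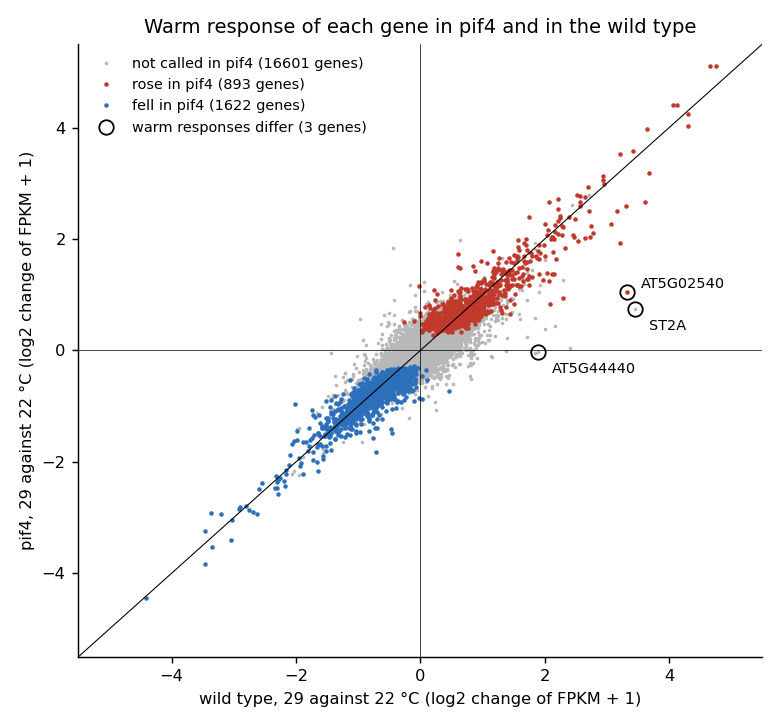
Log2 change of FPKM + 1 between 29 °C and 22 °C for each of 19116 genes, in the wild type on the horizontal axis and in pif4 on the vertical axis, with the line of equal change. Red genes rose and blue genes fell in pif4, and circles mark the 3 genes whose warm responses differed, all below the line.

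The promoters of these 3 genes are shown because their warm responses were the ones that differed. None holds the heat shock element core, a G-box or an evening element in the 250 bases before the start, where a G-box occurred in 7.4% of promoters of tested genes. ST2A lies at chr5:2176447-2176696 on the minus strand, AT5G02540 at chr5:568175-568424 on the plus strand and AT5G44440 at chr5:17912644-17912893 on the minus strand, in RefSeq TAIR10.1. That these letters are not in the window says nothing of binding elsewhere.
ST2A promoter: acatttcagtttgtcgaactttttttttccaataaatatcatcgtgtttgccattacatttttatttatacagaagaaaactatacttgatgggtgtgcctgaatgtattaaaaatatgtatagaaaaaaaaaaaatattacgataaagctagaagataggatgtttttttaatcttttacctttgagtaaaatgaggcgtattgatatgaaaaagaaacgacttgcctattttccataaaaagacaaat
AT5G02540 promoter: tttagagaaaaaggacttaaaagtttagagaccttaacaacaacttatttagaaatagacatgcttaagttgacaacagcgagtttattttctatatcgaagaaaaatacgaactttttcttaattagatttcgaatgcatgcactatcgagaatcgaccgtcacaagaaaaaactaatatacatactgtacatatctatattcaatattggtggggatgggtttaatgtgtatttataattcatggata
AT5G44440 promoter: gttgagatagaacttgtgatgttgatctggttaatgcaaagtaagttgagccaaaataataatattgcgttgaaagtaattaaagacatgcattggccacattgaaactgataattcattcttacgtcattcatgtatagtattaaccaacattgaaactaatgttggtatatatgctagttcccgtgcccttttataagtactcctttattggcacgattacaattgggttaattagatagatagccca

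Of 10 measured members of the PIF family, PIF4 included, 1 rose and 2 fell in pif4. PIF5, the closest relative of PIF4 in growth control, fell from 50, 62.1 and 33.7 FPKM to 24.8, 28.9 and 27.2 FPKM (-0.79 ± 0.18, limma adjusted p = 0.0085), a call lost without replicate 2 at 22 °C. UNE10, also called PIF8, fell from 70.3, 74.2 and 44.1 FPKM to 13.3, 39.1 and 24.8 FPKM (-1.34 ± 0.34, limma adjusted p = 0.0163), a call lost when any of 3 libraries was left out. SPT (SPATULA), which restrains growth in the cool, rose from 2.33, 2.84 and 3.58 FPKM to 6.98, 7.92 and 7.73 FPKM (1.14 ± 0.18, limma adjusted p = 0.000484). The libraries of SPT and PIF5 did not overlap between temperatures. PIF1, PIF3, PIF6, PIF7, HFR1 and ALC were not called, with changes from -0.44 to 0.51. With the 6 pif4 libraries fitted alone, SPT was the called member.

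The replicates at 29 °C ordered the gene groups in different ways. For the 13 risen small heat shock genes, the median excess over the 22 °C mean was 2.58 in replicate 1, 4.58 in replicate 2 and 2.68 in replicate 3, and all 13 were highest in replicate 2. For the 9 risen larger chaperones these medians were 1.70, 3.94 and 1.73, with 8 highest in replicate 2. The fallen genes as a whole were lowest in replicate 1 in 896 of 1622 cases, in replicate 2 in 382 and in replicate 3 in 344. The median SD of log2(FPKM + 1) over all genes was 0.245 among the pif4 libraries at 29 °C and 0.164 among those at 22 °C. The part of this split in each result was not tested beyond the values given without these libraries.

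**Figure D5:**
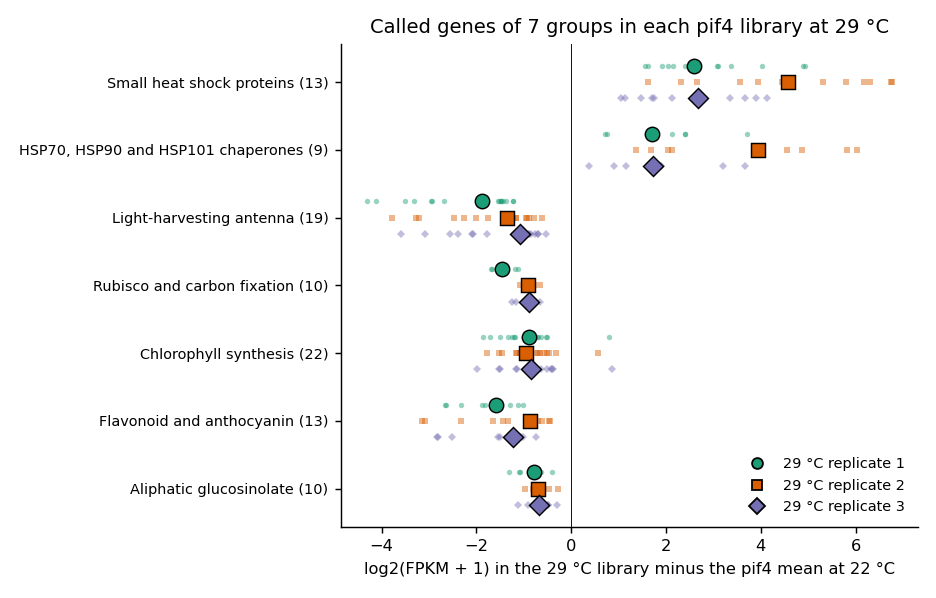
Log2(FPKM + 1) in each pif4 library at 29 °C minus the pif4 mean at 22 °C, for the called genes of 7 groups (small symbols, number of called genes in brackets) and their medians (large symbols). Replicate 2 has the highest median for both chaperone groups, at 4.58 and 3.94, and replicate 1 the lowest for the antenna and carbon fixation.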

How the data were processed

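Seedling RNA of day 7 was isolated in Trizol for TruSeq libraries, per the labels' protocols. The authors deposited FPKM per gene, which scales reads by gene length and library size, with 1 column for each of 18 libraries and 0 columns left without a sample. Bowtie 0.12.2 and the build mm8 are named in the submitters' processing notes. Because mm8 is a mouse build and the loci are Arabidopsis, the genome, gene models and counting tool are taken as not given in the sources used.

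Genes that reached 1 FPKM in 3 or more libraries were kept, and log2(FPKM + 1) was fitted with limma 3.58.1 in R 4.3.3. The model had 1 coefficient per group of genotype and temperature, with empirical Bayes variances that follow the mean. The 5 contrasts were the warm response of each genotype and the differences of the pif4 response from the other 2. Tests were 2-sided, with Benjamini-Hochberg adjustment over 19116 genes at 0.05. The fit was tested on simulated data with independent noise in each library. Such data lack the deviations that same-numbered libraries shared, so they cannot show how those affect the calls. Fragment totals are not given, so intervals from counting could not be made.

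The members and the 34 gene lists were chosen with earlier results of these data known. The rule for naming genes took PIF4, at most 15 risen and at most 15 fallen genes with the largest changes, without overlap of libraries and with a mean of at least 2 FPKM in the higher group, and up to 8 in each direction for each difference of responses. It added up to 5 called members of smallest p per list, all members of the PIF, auxin synthesis, reference, root and seed lists, and up to 10 called genes of largest spread at 29 °C. Names were left out for length.

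Gene names, promoters and opposite-strand overlaps came from RefSeq TAIR10.1, in which 32835 identifiers of the table were found. It was not used for the values, and no source used here names the build of the authors' table. Close copies were sought with blastn 2.17.0, asking for 90% identity across at least 50% of a transcript.

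Alternatives were a pseudocount of 0.1, no filter, size factors, no variance trend, and the libraries of the contrast alone. Others were a block for replicate number on the libraries of the contrast alone, a block within temperature, and each library left out in turn. Fits without replicate 1, or without replicate 2, of every genotype at 29 °C were chosen after seeing the data. Plots used matplotlib 3.10.9 (Python 3.11.15).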

Additional observations from a re-analysis of the deposited data

Results flagged for a closer look

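The warm response differed between pif4 and the wild type for 3 genes, by limma's test of the difference itself. For ST2A the difference of the pif4 change from the wild-type change was -2.7 on the log2 scale, for AT5G02540 it was -2.27 and for AT5G44440 it was -1.9. The adjusted p was 0.0422, 0.0409 and 0.0398. AT5G02540 rose in all 3 genotypes, ST2A was not called in pif4, and AT5G44440 was listed at 0 in all 3 pif4 libraries at 29 °C. When each of the 12 pif4 and wild-type libraries was left out in turn, the highest adjusted p was 0.178 for ST2A, 0.178 for AT5G02540 and 0.164 for AT5G44440.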

How the results depend on the processing

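The pif4 warm response called 2515 genes, 893 higher and 1622 lower. With the 6 pif4 libraries alone these counts were 1096, 368 and 728. With each pif4 library left out in turn they ran from 1524 to 2518, from 500 to 821 and from 1024 to 1697. The lowest came without replicate 1 at 22 °C, 1524 genes, and without replicate 2 at 22 °C 1666 were called, 516 of them higher. A pseudocount of 0.1, no filter, size factors and no variance trend gave 2490, 2505, 2434 and 2481 genes. Size factors raised the share of higher calls from 35.5% to 43.2%. Of the 115 named genes called, 86 kept their call with every pif4 library left out in turn, 0 changed sign under any alternative, and 29 lost the call with the pif4 libraries alone.

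Replicate numbers did not pair the pif4 libraries across temperatures, where deviations of same-numbered libraries correlated at -0.376, 0.003 and 0.182. Within a temperature they paired pif4 with the wild type at 22 °C (0.502, 0.491 and 0.604) and in part at 29 °C (0.467, 0.694 and -0.324), and pif4 with bbx18 bbx23 in part (0.228, 0.008 and 0.523, then 0.691, 0.779 and 0.053). With a replicate block on the pif4 libraries alone, 394 genes were called, 160 higher and 234 lower, and 50 named genes lost their call. Without the block, the pif4 libraries alone gave 1096 genes, and 29 named genes lost their call. Of the gene groups, 11 small heat shock genes, 5 larger chaperones, 7 antenna, 1 carbon fixation and 1 glucosinolate gene were called with this block. In the same fit 9 chlorophyll synthesis, 6 flavonoid and 3 iron genes fell, against 14, 11 and 5 without the block.

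The 3 genes whose response differed from the wild type became 0 with a pseudocount of 0.1, 1 with no filter and 8 with a block within temperature. Their count was 2 with the pif4 and wild-type libraries alone, 0 with a replicate block on those libraries, and 0 to 6 with 1 library left out. Against bbx18 bbx23 the count of 0 became 1 with a pseudocount of 0.1 or no variance trend, 2 with the block within temperature, 1 without replicate 1 at 29 °C in all genotypes, and 0 to 1 with 1 library left out. The cause was not tested.

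Genes near no change switched sign, none of them called. LRX1, at -0.03, was 0.01 with size factors, 0.23 without replicate 1 and 0.01 without replicate 2 at 29 °C in all genotypes. PRP3 was 0.34 and PIF7 0.11 without replicate 1, and EXPA18 and TAA1 were both -0.01 without replicate 2. With 1 library left out, LRX1 ran from -0.33 to 0.23, PRP3 from -0.47 to 0.34, PIF7 from -0.45 to 0.11, EXPA18 from -0.42 to 0.50 and TAA1 from -0.01 to 0.50. EXPA7 ran from -0.28 to 0.62, YUC4 from -0.21 to 0.01, UBC21 from -0.25 to 0.02, UBQ10 from -0.01 to 0.30 and AT4G34270 from -0.01 to 0.09. Depth is unknown beyond an approximation, so changes of genes under about 1 FPKM carry a counting error that is not given here.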

Other observations

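Cell division and replication genes fell in 4 of 15 members in pif4 and rose in none, with a median of -0.38, but 2 fell without replicate 3 at 22 °C or replicate 2 at 29 °C and 1 with the pif4 libraries fitted alone. The mitotic cyclin CYCB1;2 stood at 7.33, 8.34 and 7.02 FPKM at 22 °C and at 4.79, 3.62 and 3.53 FPKM at 29 °C (-0.79 ± 0.14, limma adjusted p = 0.00166), and the Aurora kinase gene AUR1 changed by -0.62 ± 0.14 (limma adjusted p = 0.00665). In the wild type 7 of the listed cell division genes fell. The median difference of the pif4 change from the wild-type change was 0.02, and 0 members had an unadjusted limma p under 0.05 for it. Among flowering time genes, the repressor FLM fell from a mean of 22.1 ± 1.5 FPKM (SD, n = 3) to 11.8, 11.3 and 11.6 FPKM (-0.88 ± 0.15, limma adjusted p = 0.00113). Its partner SVP rose from 27.3, 29.3 and 28.8 FPKM to 48.8, 42.8 and 48.2 FPKM (0.69 ± 0.17, limma adjusted p = 0.0118), and the promoter of flowering SOC1 changed by -0.56 ± 0.11 (limma adjusted p = 0.00268). Values of FLM are summed over its splice forms. Of B-box genes, BBX3 fell from 295, 322 and 250 FPKM to 32.0, 90.09 and 77.9 FPKM (-2.22 ± 0.40, limma adjusted p = 0.00165) and BBX22 rose by 1.28 ± 0.31 (limma adjusted p = 0.0115), a call lost without replicate 2 at 29 °C. UVR8, the ultraviolet B receptor, was the 1 photoreceptor or light signalling gene of 17 that rose (0.67 ± 0.13, limma adjusted p = 0.00312).

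Each hormone list outside auxin had 0 or 1 called gene, near the background of 13.2% of all genes tested. Of 12 gibberellin genes GA2OX2, an inactivating oxidase, rose (1.16 ± 0.28, limma adjusted p = 0.0102), and of 13 brassinosteroid genes none was called by limma. Of 11 abscisic acid genes ABA1, zeaxanthin epoxidase, fell (-1.11 ± 0.28), of 12 salicylic acid genes ICS1, isochorismate synthase, fell (-0.57 ± 0.16), and of 13 jasmonate genes LOX3, a lipoxygenase, rose (1.05 ± 0.27). These 3 calls were lost with 2, 5 and 2 of the 6 pif4 libraries left out in turn. The auxin-conjugating GH3.17 fell by 0.79 on the log2 scale. None of 9 handling and rapid stress markers and none of 6 reference genes was called, with medians of 0.07 and -0.08. Of 8 seed storage and embryo markers, OLEO4 alone passed the filter and fell (-1.22 ± 0.21), and CRC was listed at 0 in the 6 pif4 libraries.

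A few genes chosen after their values were seen differed widely between the pif4 libraries at 29 °C. The clock gene GI stood at 1.21, 13.9 and 4.53 FPKM there and at 0.613, 0.689 and 0.227 FPKM at 22 °C. PRR9, a morning clock gene, stood at 0.253, 13.6 and 3.57 FPKM at 29 °C in pif4. In the wild type PRR9 stood at 0.041, 9.84 and 3.08 FPKM at 29 °C, so replicate 2 was the highest and replicate 1 the lowest in both genotypes.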
